A study of Mus musculus with 37 samples.

Results

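Genes of the cardiac sarcomere, together with the natriuretic peptide genes and the stress-responsive gene Ankrd1, were examined in neonatal rat ventricular myocytes (NRVMs). The set was drawn up by gene name, as a list of 35 genes for the thick filament, the thin filament, titin and the M band, the Z disc and intercalated disc, the desmin filament and the natriuretic peptides. Of these, 32 were found in the myocyte table of 20158 genes and all 32 passed the filter on low counts, which left 13461 genes to test. Ttn, Tcap and Lmod2 were not analysed here in the myocytes.

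The series asked how ENPP1, an ectonucleotidase that cleaves extracellular ATP to AMP and pyrophosphate, acts through cardiac myocytes on the cells around them, and the NRVM libraries address how myocytes themselves respond to the same media. Wild-type Sprague-Dawley NRVMs were plated sparsely, kept in serum-free DMEM with insulin, transferrin and selenium for 24 hours, and then given myocyte-conditioned medium (MCndM) for 24 hours. The medium had been conditioned by myocytes that received vehicle, recombinant ENPP1, ATP, ENPP1 with ATP (ENPP1+ATP) or AMP. Each of the 5 media had 3 libraries, which made 15 of the 37 samples of the series. Every group was thus a primary culture exposed to conditioned medium, not to the added compound alone, and the components of a medium cannot be told apart here. The records name mouse as the organism while the cell type label says rat, and 3039 of the 20158 gene symbols carried the RGD or AABR prefix of rat gene models. The labels do not say that the 3 libraries of a medium came from separate cultures, so the p-values measure the spread between these libraries, which may be technical.

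The sarcomere is the contractile unit of striated muscle. Myosin thick filaments pull on actin thin filaments, troponin and tropomyosin make that pull depend on calcium, the Z disc anchors the thin filaments and the M band holds the thick filaments in register. Natriuretic peptides are hormones that cardiac myocytes release under wall stress. In rodent ventricles, raised Nppa, Nppb, Myh7 and Acta1 with lowered Myh6 is the classical fetal gene pattern of hypertrophy, and the switch from Myh7 to Myh6 and from Tnni1 to Tnni3 accompanies maturation after birth.

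Library totals ranged from 13481389 to 16977980 counts, with a median of 14937081. The 32 genes together took 4.70% to 7.72% of all counts of a library. Levels are given as CPM, counts scaled to the library total with TMM factors, which are not corrected for transcript length, so a level is compared between media and not between genes. The myocyte identity of the cultures was visible in the 13 other cardiomyocyte markers (among them Ryr2, Atp2a2 and Pln), all detected in every library. Their summed level was 9409 to 9730.2 CPM in vehicle, 9579.7 to 10033 in ENPP1, 7370.0 to 8064 in ATP, 10909 to 11598 in ENPP1+ATP and 11495 to 12715 in AMP medium. Fibroblast markers were abundant too, since Col1a1, the main fibrillar collagen gene, stood at 16226 ± 531 CPM (mean ± SD, n = 3) in vehicle. The 9 fibroblast markers in the table summed to 24901 to 26303 CPM in vehicle and 25055 to 25438 in ENPP1 medium, against 10422 to 11769 in ATP, 8329 to 8789 in ENPP1+ATP and 11568 to 12348 in AMP medium, with 1 of 9 higher and 6 to 7 of 9 lower than vehicle in each of these 3 media (beside 28.6% to 30.2% of all genes higher and 27.4% to 29.7% lower). Endothelial markers summed to 33.4 to 66.3 CPM and macrophage markers to 6.77 to 21.9 CPM, with C1qa, C1qb and Adgre1 at 0 in at least 1 library, and smooth muscle and pericyte markers to 1043 to 1566 CPM. Mitochondrially encoded genes took 8.14% to 8.35% of counts in vehicle, 8.05% to 8.45% in ENPP1, 8.77% to 9.62% in ATP, 10.9% to 11.1% in ENPP1+ATP and 10.5% to 11.1% in AMP medium. These values moved with the media, and their part in the results on sarcomere genes was not tested. In bulk RNA, fewer cells of a type and less RNA per cell cannot be told apart.

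The summed level of the 32 genes fell into 3 ranges. It was 75922 ± 2135 CPM (mean ± SD, n = 3) in vehicle, 77459 ± 2839 in ENPP1 and 72885 ± 2074 in AMP medium, was lower at 61044 ± 745 in ENPP1+ATP medium, and was lowest at 45698 ± 1317 in ATP medium. The sum of the other cardiomyocyte markers was likewise lowest in ATP medium, but in ENPP1+ATP and AMP medium it was higher than in any vehicle library. These 13 markers went both ways against vehicle. With ATP 5 rose and 8 fell (beside 30.2% and 29.7% of all genes). With ENPP1+ATP 7 rose and 4 fell (beside 28.6% and 27.4%), and with AMP 9 rose and 3 fell (beside 29.2% and 28.0%). By gene, the lowest mean was in ATP medium for 23 of the 32 genes, in ENPP1+ATP medium for 5, in vehicle for 3 and in ENPP1 medium for 1.

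**Figure D1:**
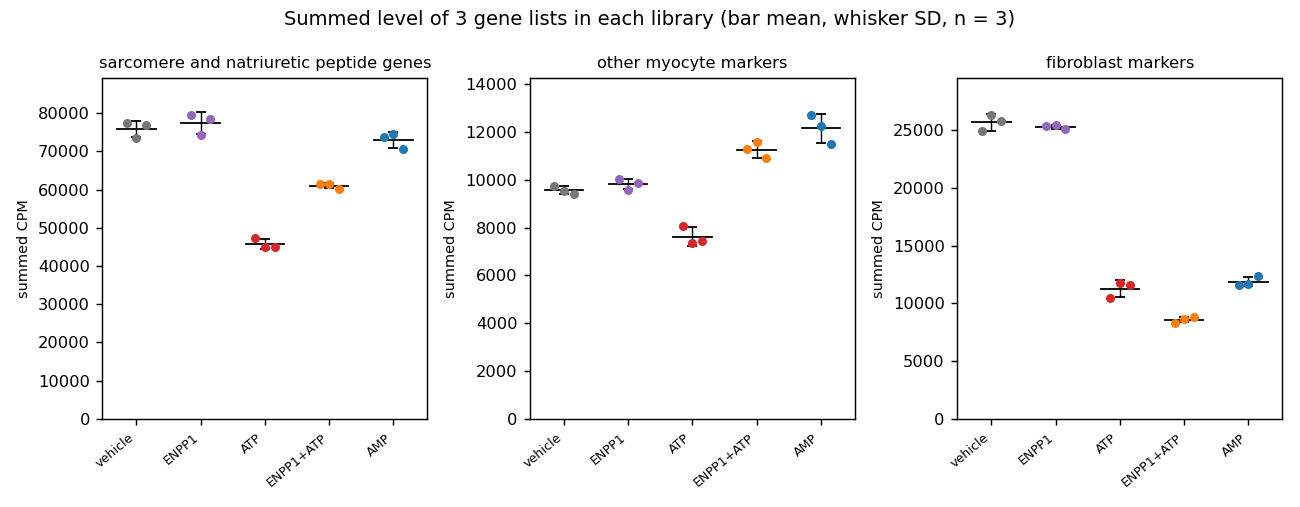
Summed CPM per library for the 32 sarcomere and natriuretic peptide genes, the 13 other cardiomyocyte markers and the 9 fibroblast markers, by conditioned medium; points are libraries, the bar is the mean and the whisker the SD (n = 3). The first sum is lowest in ATP medium at 45698 CPM, and the fibroblast sum is at most 12348 CPM in the ATP, ENPP1+ATP and AMP media and at least 24901 CPM in the other two.

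Against vehicle, ATP medium had the lowest median and the most falls of 2-fold or more, although the deepest single fall was that of Xirp2 in ENPP1+ATP medium. Of the 32 genes, in ATP medium 25 fell and 2 rose (edgeR quasi-likelihood test, adjusted p under 0.05 over all 13461 genes), where 29.7% of all genes tested fell and 30.2% rose, and the median log2 fold change was -0.57 against 0.0064 over all genes. ENPP1+ATP medium lowered 24 and raised 5, beside 27.4% and 28.6% of all genes, with a median of -0.31. In AMP medium 16 fell and 7 rose, beside 28.0% and 29.2% of all genes, with a median of -0.10. The 3 comparisons share the same vehicle libraries. Called falls of 2-fold or more numbered 9 in ATP medium, 4 in ENPP1+ATP medium and 1 in AMP medium, beside 6.04%, 5.62% and 5.65% of all genes. The 1 called rise of 2-fold or more in these 3 media was that of Acta1 with AMP, beside 4.04% of all genes. The shares depended on scaling, most of all for ATP. With library totals in place of TMM factors the median of all genes moved up by 0.11 on the log2 scale in the ATP comparison, 63.9% in place of 50.4% of the called genes were higher, and 24 of the 32 genes fell and 4 rose. The same change moved the share from 51% to 59.3% for ENPP1+ATP and from 51% to 51.7% for AMP.

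ENPP1 medium, in which the enzyme had no added substrate, gave no call. None of the 32 genes and none of the 13461 genes passed in edgeR (0% higher and 0% lower), and DESeq2 called 0 of the 32 genes and 0 genes in all. An unadjusted p under 0.05 was seen for 2 of the 32 genes and 693 of 13461 genes. Those 2 genes were Synpo2l, with a log2 fold change of 0.11 (95% interval 0.03 to 0.18), and Flnc, with 0.09 (0.01 to 0.18). The median over the 32 genes was 0.032, and the widest intervals were those of Xirp2, -0.03 to 0.47, and Nppb, -0.20 to 0.20.

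**Figure D2:**
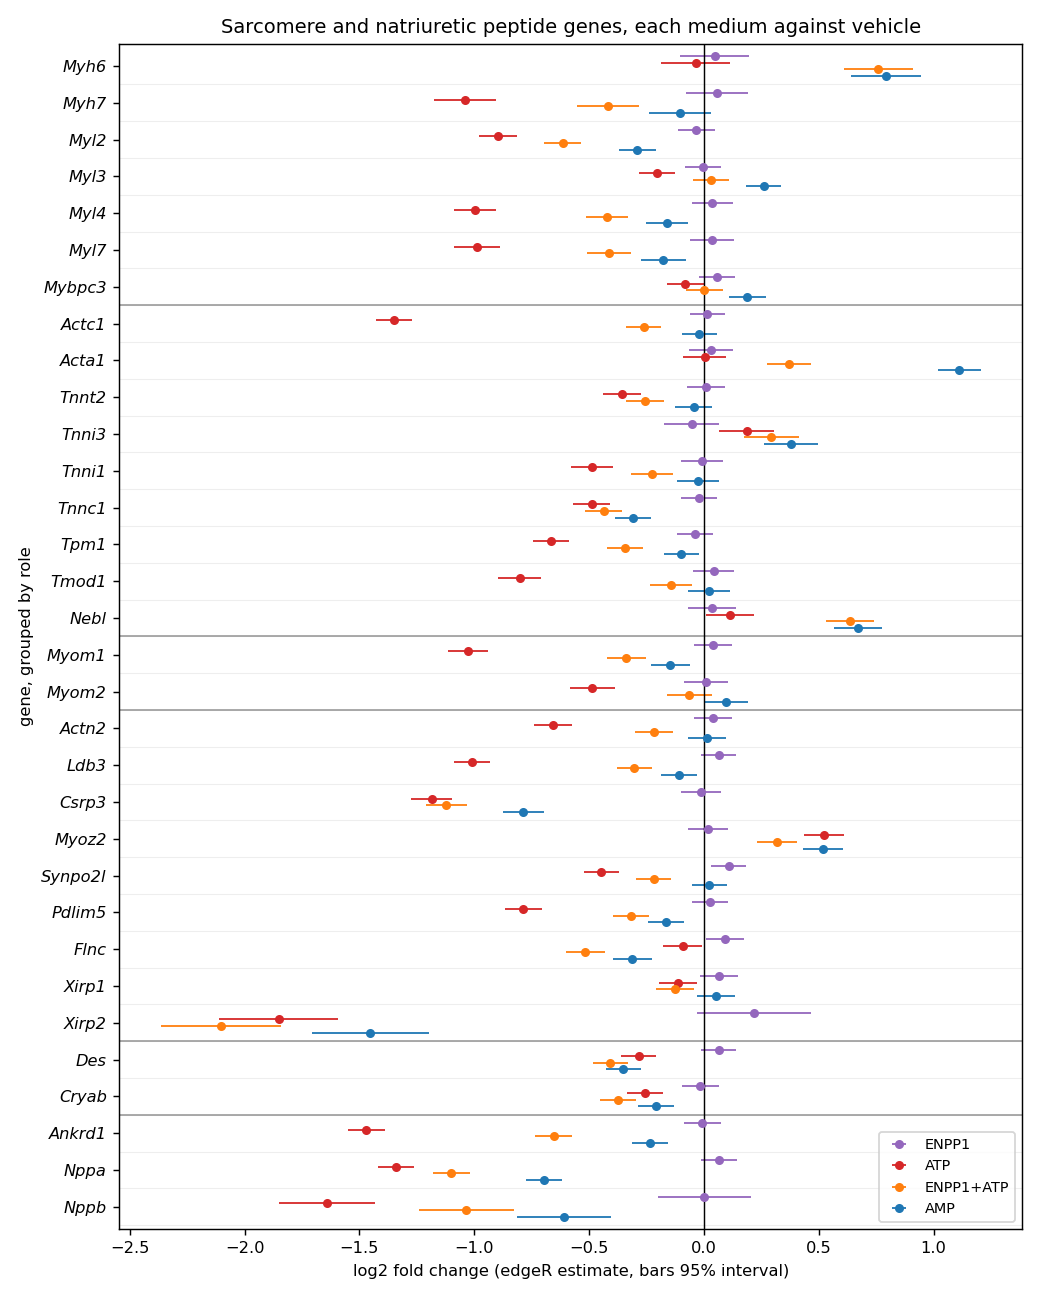
Log2 fold change of each of the 32 genes in ENPP1, ATP, ENPP1+ATP and AMP medium against vehicle, with 95% intervals from the edgeR fit, genes grouped by role. ENPP1 points lie near 0, ATP points are mostly the farthest to the left, and Myh6, Nebl, Acta1, Tnni3 and Myoz2 are right of 0 in ENPP1+ATP and AMP medium.

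The natriuretic peptides were lower in each medium made with added nucleotide. Nppa, which encodes atrial natriuretic peptide, was at 3974, 3876 and 4084 CPM in the vehicle libraries and 4145, 4006 and 4327 in the ENPP1 libraries. It was at 1621, 1544 and 1546 CPM with ATP, 1874, 1832 and 1863 with ENPP1+ATP and 2361, 2412 and 2590.5 with AMP. The 4 ranges of vehicle, AMP, ENPP1+ATP and ATP did not overlap and stood in that descending order. Nppa fell 2.53-fold in ATP medium (log2 fold change -1.34 ± 0.040, SE, edgeR adjusted p = 2.6e-29), 2.14-fold in ENPP1+ATP medium (-1.10 ± 0.040, adjusted p = 3.4e-26) and 1.62-fold in AMP medium (-0.70 ± 0.039, adjusted p = 2.1e-19).

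Nppb, which encodes B-type natriuretic peptide, followed the same order. Vehicle libraries gave 871, 801 and 885 CPM and ENPP1 libraries 788, 887 and 885. With ATP it was at 269, 264 and 286 CPM, with ENPP1+ATP at 408, 377 and 463 and with AMP at 492, 576 and 609. The lowest vehicle library was above every library of the ATP, ENPP1+ATP and AMP media. Log2 fold changes were -1.64 ± 0.095 in ATP (adjusted p = 3.0e-08), -1.03 ± 0.093 in ENPP1+ATP (adjusted p = 2.0e-06) and -0.61 ± 0.092 in AMP medium (adjusted p = 1.6e-04), which is 3.12-fold, 2.05-fold and 1.52-fold lower.

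Ankrd1 encodes a stretch- and stress-responsive ankyrin repeat protein that binds titin and also enters the nucleus. Its level was 4303, 4028 and 4163 CPM in vehicle and 4152, 4118 and 4167 in ENPP1 medium, then 1556, 1442 and 1511 with ATP, 2648, 2530.4 and 2760.0 with ENPP1+ATP and 3367, 3607 and 3644 with AMP. Again no ATP, ENPP1+ATP or AMP library reached the vehicle range. The falls were 2.77-fold in ATP (-1.47 ± 0.041, adjusted p = 2.0e-30), 1.57-fold in ENPP1+ATP (-0.65 ± 0.040, adjusted p = 2.8e-18) and 1.18-fold in AMP medium (-0.23 ± 0.040, adjusted p = 2.3e-06). All 3 genes of this group thus fell in all 3 media, beside 29.7%, 27.4% and 28.0% of all genes in ATP, ENPP1+ATP and AMP medium.

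**Figure D3:**
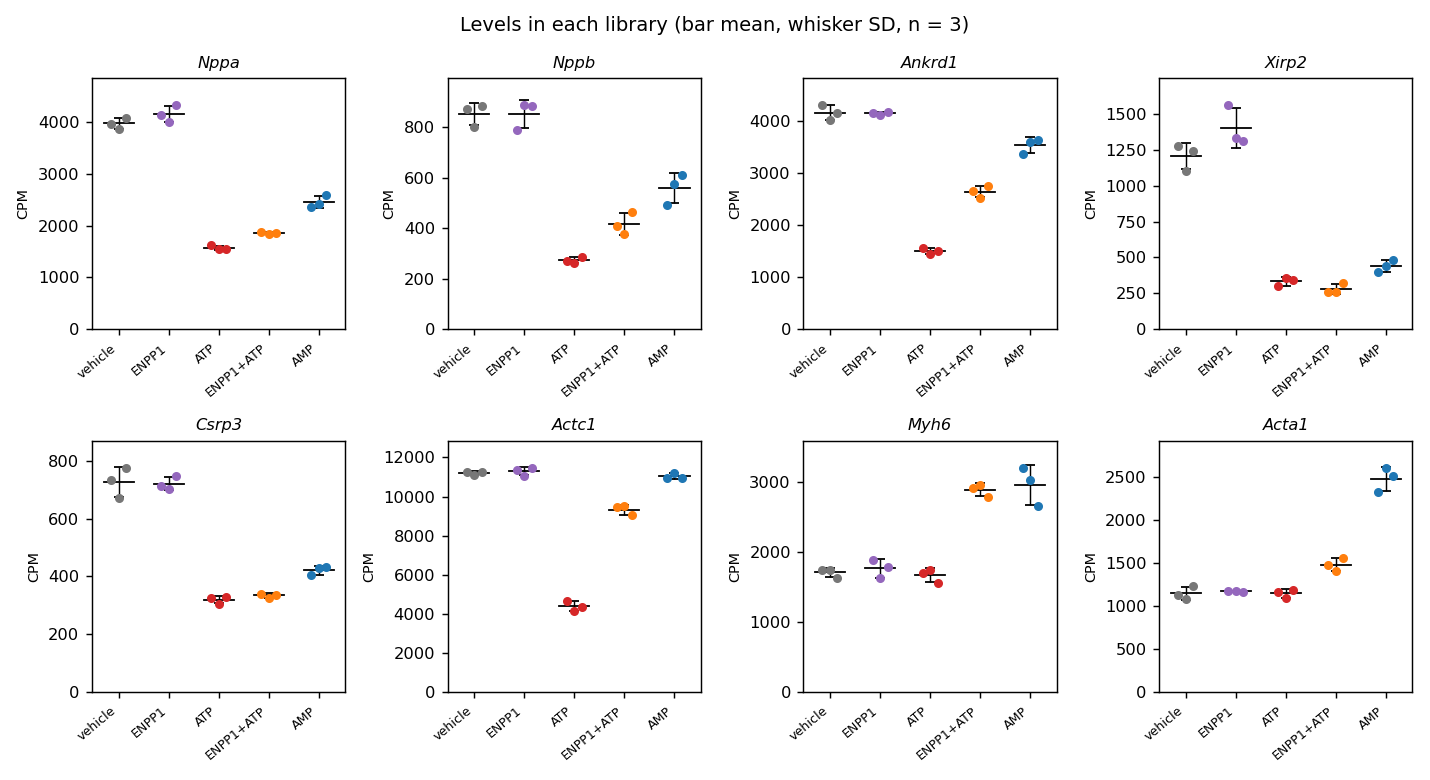
CPM in each library for Nppa, Nppb, Ankrd1, Xirp2, Csrp3, Actc1, Myh6 and Acta1 by conditioned medium; points are libraries, the bar is the mean and the whisker the SD (n = 3). Nppa, Nppb, Ankrd1, Xirp2 and Csrp3 are lower in the 3 nucleotide media, Actc1 is low mainly in ATP medium, Myh6 is higher with ENPP1+ATP and AMP, and Acta1 is highest with AMP.

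Of the 7 thick filament genes, 5 fell and none rose in ATP medium (71.4% and 0%, beside 29.7% and 30.2% of all genes). In ENPP1+ATP medium 4 fell and Myh6 rose (57.1% and 14.3%, beside 27.4% and 28.6%), and in AMP medium 3 fell and 3 rose (42.9% each, beside 28.0% and 29.2%). Myh6, the fast alpha myosin heavy chain of the adult rodent ventricle, was at 1740.1, 1742 and 1632 CPM in vehicle, 1886, 1619 and 1779 in ENPP1 and 1693, 1747 and 1550.1 in ATP medium, 3 overlapping ranges. It was at 2915, 2957 and 2786 CPM in ENPP1+ATP and 3196, 3019 and 2648 in AMP medium, all above every vehicle library. The rise was 1.69-fold with ENPP1+ATP (0.76 ± 0.070, adjusted p = 3.5e-07) and 1.73-fold with AMP (0.79 ± 0.070, adjusted p = 2.1e-07), and the ATP value was -0.04 (95% interval -0.19 to 0.11, adjusted p = 0.68).

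Myh7, the slow beta myosin heavy chain that dominates before birth, moved the other way. Its levels were 14983, 13621 and 14455 CPM in vehicle and 16324, 13640.3 and 14840.1 in ENPP1 medium. In ATP medium it was at 7362, 7094 and 6473 CPM, the largest fall among the thick filament genes in that medium, in ENPP1+ATP medium at 10620.0, 11177 and 10476 and in AMP medium at 13869.5, 13662 and 12579, where 2 libraries lay above the lowest vehicle library. Myh7 fell 2.06-fold with ATP (-1.04 ± 0.064, adjusted p = 7.2e-10) and 1.33-fold with ENPP1+ATP (-0.42 ± 0.063, adjusted p = 3.8e-05). In AMP medium its log2 difference was -0.10 (-0.24 to 0.03, adjusted p = 0.18), which passed the threshold without the filter on low counts (adjusted p = 0.019) and in a fit of only the libraries compared (0.031). Myh6 and Myh7 share long identical stretches, and how the counting treated reads that match both is not given in the sources used here, so their split is uncertain.

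The myosin light chains fell with ATP, all 4 of them, beside 29.7% of all genes. Myl2, the ventricular regulatory light chain, was at 2998, 2748 and 3033 CPM in vehicle, 2803, 2823 and 2959 in ENPP1, 1605, 1521 and 1589 in ATP, 1945, 1910.3 and 1877 in ENPP1+ATP and 2471, 2417 and 2289 in AMP medium. Myl7, the atrial regulatory light chain, was at 298, 299 and 275 CPM in vehicle, 299.8, 282 and 312 in ENPP1, 152, 143 and 145 in ATP, 225, 232 and 199 in ENPP1+ATP and 266, 254 and 253 in AMP medium. Both were lowest in ATP medium and below the vehicle range in all 3 nucleotide media, with -0.90 ± 0.040, -0.62 ± 0.040 and -0.29 ± 0.040 for Myl2 and -0.99 ± 0.049, -0.41 ± 0.048 and -0.18 ± 0.048 for Myl7 (log2 fold change ± SE in ATP, ENPP1+ATP and AMP medium, edgeR adjusted p at most 0.0018).

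Among the essential light chains, Myl4, the atrial and fetal form, fell in all 3 nucleotide media, whereas Myl3, the ventricular form, did not. Myl4 was at 645, 648 and 602 CPM in vehicle, 620.2, 659 and 664 in ENPP1, 342, 302 and 305 in ATP, 479.8, 495 and 441 in ENPP1+ATP and 565, 572 and 557 in AMP medium. Myl3 was at 2334, 2265 and 2424 CPM in vehicle, 2335, 2251 and 2418 in ENPP1, 2092, 1968 and 2031 in ATP, 2404, 2402 and 2371 in ENPP1+ATP and 2851, 2876 and 2680.1 in AMP medium. The log2 fold changes of Myl4 were negative in all 3 media (-0.997 ± 0.046, -0.42 ± 0.045 and -0.16 ± 0.045, adjusted p at most 0.0023), while Myl3 fell in ATP (-0.21 ± 0.039, adjusted p = 1.4e-05), rose in AMP (0.26 ± 0.039, adjusted p = 2.1e-07) and gave 0.03 (-0.05 to 0.11, adjusted p = 0.51) in ENPP1+ATP medium. Mybpc3, the cardiac myosin binding protein C, was among the steadiest genes. It rose 1.14-fold with AMP (0.19 ± 0.040, adjusted p = 8.0e-05), with 0.0024 (-0.08 to 0.08) in ENPP1+ATP and -0.08 (-0.16 to -0.0016, adjusted p = 0.073) in ATP medium. The last value passed the threshold under 9 of 23 other settings.

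Of the 9 thin filament genes tested, 6 fell and 1 rose with ATP (66.7% and 11.1%, beside 29.7% and 30.2% of all genes) and 6 fell and 3 rose with ENPP1+ATP (66.7% and 33.3%, beside 27.4% and 28.6%). With AMP 2 fell and 3 rose (22.2% and 33.3%), near the 28.0% and 29.2% of all genes. The 2 sarcomeric actins moved apart. Actc1, the cardiac actin, was at 11231, 11077 and 11264 CPM in vehicle and 11379, 11069.5 and 11459 in ENPP1 medium, and at 4654, 4141 and 4370.5 CPM in ATP medium, less than any other library. With ENPP1+ATP it was at 9444, 9512 and 9036 CPM and with AMP at 10952, 11202 and 10950.2. It fell 2.55-fold with ATP (-1.35 ± 0.038, adjusted p = 6.9e-30) and less with ENPP1+ATP (-0.26 ± 0.038, adjusted p = 1.1e-07), and the AMP difference was -0.02 (-0.10 to 0.06, adjusted p = 0.67).

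Acta1, the skeletal actin that the fetal and stressed ventricle expresses, had its high values in AMP medium. Levels were 1123, 1084 and 1232 CPM in vehicle, 1172, 1179.6 and 1160.1 in ENPP1 and 1162, 1094 and 1192 in ATP medium, then 1478, 1406 and 1562 with ENPP1+ATP and 2323, 2607 and 2508 with AMP. The first 3 ranges overlapped and the last 2 lay above them and apart from each other. Acta1 rose 2.16-fold with AMP (1.11 ± 0.047, adjusted p = 4.2e-20) and 1.29-fold with ENPP1+ATP (0.37 ± 0.047, adjusted p = 2.9e-08), and the ATP value was 0.0036 (-0.09 to 0.10, adjusted p = 0.95). Acta1 and Actc1 differ little in coding sequence, so reads may be split between them with error.

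The troponins differed by isoform. Tnni3, the adult cardiac inhibitory subunit, was at 883, 861 and 922 CPM in vehicle, 773, 839 and 958 in ENPP1, 1049, 982 and 1002 in ATP, 1097, 1104 and 1066 in ENPP1+ATP and 1179, 1202 and 1086 in AMP medium. It was 1 of 2 genes of the set, with Myoz2, that rose in all 3 nucleotide media (0.19 ± 0.057, 0.29 ± 0.057 and 0.38 ± 0.057, adjusted p = 0.0084, 1.9e-04 and 9.5e-06). Tnni1, the slow skeletal form of the fetal heart, was at 935, 944 and 911 CPM in vehicle, 906, 901 and 968 in ENPP1, 707, 634 and 649.8 in ATP, 809.9, 831 and 745 in ENPP1+ATP and 937, 949.6 and 857 in AMP medium. It fell with ATP (-0.49 ± 0.045, adjusted p = 6.2e-12) and ENPP1+ATP (-0.23 ± 0.045, adjusted p = 4.9e-05), with -0.02 (-0.12 to 0.07) in AMP medium. Tnnc1, the calcium-binding subunit, fell in all 3 media, with log2 fold changes of -0.49, -0.44 and -0.31 in ATP, ENPP1+ATP and AMP medium. Tnnt2, the tropomyosin-binding subunit, fell in ATP (-0.36 ± 0.041) and ENPP1+ATP medium (-0.26 ± 0.041), with -0.04 (-0.13 to 0.04) in AMP medium.

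Nebl, which encodes nebulette of the thin filament ends at the Z disc, rose beside Myh6. It was at 421, 397 and 395 CPM in vehicle, 442, 386 and 416 in ENPP1, 463, 429.5 and 419 in ATP, 642, 609 and 636 in ENPP1+ATP and 677, 664 and 591 in AMP medium. The ENPP1+ATP and AMP libraries were all above the others, by 0.64 ± 0.051 and 0.67 ± 0.051 relative to vehicle (adjusted p = 9.4e-12 and 3.0e-12), and the ATP value was 0.11 (0.01 to 0.22, adjusted p = 0.057). That last value crossed the threshold in 7 of 23 other settings. Tpm1, the main cardiac tropomyosin, fell with log2 fold changes of -0.67, -0.34 and -0.10 in the ATP, ENPP1+ATP and AMP media, and the AMP call was lost without AMP replicate 3 (adjusted p = 0.17), vehicle replicate 1 (0.079) or vehicle replicate 3 (0.10). Tmod1, which caps the pointed ends, fell with log2 fold changes of -0.80 with ATP and -0.14 with ENPP1+ATP, with 0.02 (-0.07 to 0.11) in AMP medium, and the ENPP1+ATP call was lost with library totals in place of TMM factors (adjusted p = 0.093).

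In the M band, Myom1 and Myom2, which cross-link myosin filaments, both fell with ATP. Myom1 went from 627 ± 22.4 CPM (mean ± SD, n = 3) in vehicle to 308 ± 11.6 with ATP, 496 ± 8.17 with ENPP1+ATP and 566 ± 23.0 with AMP, log2 fold changes of -1.03 ± 0.043, -0.34 ± 0.042 and -0.15 ± 0.042 (adjusted p at most 0.0026). Myom2 fell with a log2 fold change of -0.49 ± 0.048 with ATP (adjusted p = 1.9e-10). Its values of -0.06 (-0.16 to 0.03) and 0.10 (-2.8e-05 to 0.19) with ENPP1+ATP and AMP did not pass, though the AMP value did with a replicate block (adjusted p = 0.028), without AMP replicate 3 (0.016) or without vehicle replicate 1 (0.035).

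Z disc and intercalated disc genes included the deepest fall. With ATP 7 of 9 fell, with ENPP1+ATP 8 and with AMP 5 (77.8%, 88.9% and 55.6%, beside 29.7%, 27.4% and 28.0% of all genes). In each of these media 1 of 9 rose (11.1%, beside 28.6% to 30.2% of all genes), and it was Myoz2 each time. Xirp2, an actin-binding Xin repeat protein of the intercalated disc, was at 1274, 1101 and 1244 CPM in vehicle and 1559.7, 1335 and 1312 in ENPP1 medium. It was at 299.8, 358 and 346 CPM in ATP, 262, 257 and 322 in ENPP1+ATP and 401, 441 and 480.3 in AMP medium, all far below the vehicle range. The falls were 3.61-fold in ATP (-1.85 ± 0.12, adjusted p = 9.1e-08), 4.30-fold in ENPP1+ATP (-2.10 ± 0.12, adjusted p = 3.7e-08) and 2.74-fold in AMP medium (-1.45 ± 0.12, adjusted p = 7.8e-07). The related Xirp1 changed little, with -0.11 in ATP (adjusted p = 0.017), -0.13 in ENPP1+ATP (adjusted p = 0.0091) and 0.05 (-0.03 to 0.14) in AMP medium, and both its calls were lost without vehicle replicate 3 (adjusted p = 0.12 and 0.083).

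Csrp3, the muscle LIM protein that acts in mechanical sensing at the Z disc, was at 735, 670.2 and 775 CPM in vehicle, 713, 703 and 747 in ENPP1, 326, 304 and 328 in ATP, 339.9, 325 and 337 in ENPP1+ATP and 404, 427 and 432 in AMP medium. Its falls with ATP and ENPP1+ATP were nearly equal, -1.19 ± 0.044 and -1.12 ± 0.044 (adjusted p = 2.4e-25 and 2.1e-24), and smaller with AMP, -0.79 ± 0.044 (adjusted p = 3.2e-19). Myoz2, the calcineurin-binding protein calsarcin-1, was at 414, 396 and 398 CPM in vehicle, 418, 385 and 419.6 in ENPP1, 593, 554 and 589.6 in ATP, 513, 492 and 498 in ENPP1+ATP and 586, 606 and 536 in AMP medium. All nucleotide libraries were above the vehicle range, by 0.52 ± 0.043, 0.32 ± 0.043 and 0.52 ± 0.043 in the ATP, ENPP1+ATP and AMP media (adjusted p at most 3.2e-08).

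Another 4 Z disc genes had their deepest falls in ATP medium. Ldb3, the PDZ-LIM protein ZASP, fell with log2 fold changes of -1.01 with ATP, -0.30 with ENPP1+ATP and -0.11 with AMP, the last call being lost without AMP replicate 3 (adjusted p = 0.080) or vehicle replicate 3 (0.051). Pdlim5, the PDZ-LIM protein ENH, fell with log2 fold changes of -0.79, -0.32 and -0.17 in the same order. Actn2, the alpha-actinin that cross-links actin at the Z disc, fell with log2 fold changes of -0.66 and -0.22, with 0.01 (-0.07 to 0.09) in AMP medium. Synpo2l, an actin-binding protein of the Z disc, fell with log2 fold changes of -0.45 and -0.22, with 0.02 (-0.05 to 0.10) in AMP medium. Flnc, the muscle filamin, had another order, with its largest fall in ENPP1+ATP medium (-0.52 ± 0.042, adjusted p = 3.0e-14), a smaller one in AMP medium (-0.31 ± 0.042, adjusted p = 2.4e-08), and -0.09 (-0.18 to -0.01, adjusted p = 0.052) in ATP medium, which passed under 12 of 23 other settings. Flnc also had a median of 197 CPM in the cardiac fibroblast libraries of the series. The part of fibroblasts in its order was not tested.

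Des, the muscle intermediate filament desmin, and Cryab, the small heat shock protein that protects it, fell in all 3 media. Des was at 2062, 2022 and 2141 CPM in vehicle, 2205, 2103 and 2203 in ENPP1, 1758, 1662 and 1692 in ATP, 1581, 1535 and 1575 in ENPP1+ATP and 1592, 1687 and 1599.6 in AMP medium. Its log2 fold changes were -0.28 ± 0.038, -0.41 ± 0.038 and -0.35 ± 0.038 in the ATP, ENPP1+ATP and AMP media (adjusted p at most 1.6e-08). Those of Cryab were -0.26 ± 0.039, -0.37 ± 0.039 and -0.21 ± 0.039 (adjusted p at most 1.2e-05). For both genes the lowest mean was in ENPP1+ATP medium and not in ATP medium. Cryab had a median of 102 CPM in the cardiac fibroblast libraries, and the part of fibroblasts in its order was not tested.

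Most of these genes were higher when the medium had been conditioned with ENPP1 and ATP than with ATP alone. Between ENPP1+ATP and ATP medium, 21 of the 32 genes were higher and 4 lower, where 14.1% of all genes were higher and 13.5% lower, with a median log2 difference of 0.30 against -0.011 over all genes. The largest differences were Actc1 (1.09 ± 0.038, adjusted p = 2.4e-25), Ankrd1 (0.82 ± 0.040, adjusted p = 3.5e-20) and Myh6 (0.80 ± 0.070, adjusted p = 8.1e-07). Ldb3, Myom1, Tmod1, Myh7, Nppb, Myl4 and Myl7 were higher by 0.57 to 0.71. By role, 6 of 7 thick filament, 6 of 9 thin filament, 2 of 2 M band and 3 of 3 stress and natriuretic peptide genes were higher. The Z disc genes were divided, with 4 of 9 higher and 2 lower, and both genes of the desmin filament were lower. The 4 lower genes were Flnc (-0.42 ± 0.042, adjusted p = 5.4e-11), Myoz2 (-0.21 ± 0.043, adjusted p = 1.7e-04), Des (-0.12 ± 0.038, adjusted p = 0.011) and Cryab (-0.12 ± 0.039, adjusted p = 0.022). The Des call was lost without ATP replicate 1 (adjusted p = 0.068) or ENPP1+ATP replicate 2 (0.062), and the Cryab call without ATP replicate 3 (0.16) or ENPP1+ATP replicate 2 (0.12). With library totals in place of TMM factors 35.6% in place of 51.2% of the called genes were higher, and 21 of the 32 genes were still higher and 4 lower. Of the 13 other cardiomyocyte markers 10 were higher and none lower, with a median of 0.35, and of the 9 fibroblast markers 4 were higher and 3 lower. Their part in the difference was not tested.

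Not all genes that fell with ATP differed between the 2 media. Csrp3 gave 0.06 (-0.03 to 0.15, adjusted p = 0.31), Xirp2 -0.25 (-0.51 to 0.0049, adjusted p = 0.14) and Tnnc1 0.05 (-0.03 to 0.13, adjusted p = 0.35). Without ENPP1+ATP replicate 3 the Xirp2 difference passed (adjusted p = 0.042). Tnnt2 gave 0.10 (adjusted p = 0.061), which passed under 11 of 23 other settings. Xirp1 was not called either, at 496 ± 2.74 CPM (mean ± SD, n = 3) with ATP and 492 ± 9.24 with ENPP1+ATP. Nppa was only slightly higher, by 0.24 ± 0.039 (adjusted p = 4.3e-06), and Nppb by 0.61 ± 0.094 (adjusted p = 5.5e-04).

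The vehicle, ENPP1, ATP and ENPP1+ATP media form a layout of both additions alone and together, so the joint medium can be set against the sum of the separate log2 changes. It lay above that sum for 20 of the 32 genes and below it for 3, where 8.01% of all genes lay above and 6.80% below, with a median of 0.33 against -0.0063 over all genes. Actc1 was the farthest above (1.07 ± 0.054, adjusted p = 2.9e-19), followed by Ankrd1 (0.82 ± 0.056, adjusted p = 9.2e-15) and Myh6 (0.75 ± 0.099, adjusted p = 1.2e-04). Below it were Flnc (-0.52 ± 0.059, adjusted p = 9.6e-09), Myoz2 (-0.23 ± 0.061, adjusted p = 0.0074) and Des (-0.19 ± 0.053, adjusted p = 0.011). Xirp2 gave -0.47 (-0.83 to -0.11, adjusted p = 0.083), which passed in DESeq2 (0.034) and without ENPP1+ATP replicate 3 (0.029). The other cardiomyocyte markers lay above the sum for 10 of 13 genes and below it for none, with a median of 0.47, and the fibroblast markers for 3 of 9 and below it for 3. Nppa lay slightly above (0.18 ± 0.055, adjusted p = 0.023), a call that was lost without ATP replicate 2 (0.053) or 3 (0.064), ENPP1 replicate 2 (0.058), ENPP1+ATP replicate 1 (0.059) or vehicle replicate 3 (0.080), and with library totals in place of TMM factors (0.091). This comparison uses the ATP and ENPP1+ATP libraries of the preceding one. ENPP1 medium gave no call against vehicle, with a median of 0.032 over the 32 genes. The sum was thus close to the ATP change alone, and the result largely repeats the preceding one. For Actc1, Ankrd1 and Nppa, a value above the sum went with a smaller fall than in ATP medium. With library totals in place of TMM factors 39.0% in place of 54.1% of all called genes lay above the sum. Against ENPP1 medium, the joint medium lowered 24 of the 32 genes and raised 5, beside 27.7% and 28.6% of all genes, with a median of -0.34. The extremes there were Xirp2 (-2.32 ± 0.12, adjusted p = 1.6e-08) and Myh6 (0.71 ± 0.070, adjusted p = 7.1e-07).

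AMP medium differed from ENPP1+ATP medium in 1 direction. Relative to ENPP1+ATP, 28 of the 32 genes were higher with AMP and none was lower, where 5.81% of all genes were higher and 3.85% lower, and the median difference was 0.21 against -0.0022 over all genes (quartiles -0.10 and 0.10). The 32 genes have high counts, at which small differences are called more readily than in many of all genes. The sizes were small for most, and 3 of the 32 genes passed a test against a 1.2-fold change, which 0.981% of all genes passed. These were Acta1 (0.74 ± 0.047), Ankrd1 (0.42 ± 0.040) and Nppa (0.40 ± 0.039), with adjusted p of 1.9e-13, 1.3e-10 and 2.3e-10 in the test against no change, which gave the other p-values of this comparison as well. Xirp2 (0.65 ± 0.12, adjusted p = 0.0047) and Nppb (0.43 ± 0.093, adjusted p = 0.014) were higher as well, and Nppb lost its call without AMP replicate 2 (0.057) or ENPP1+ATP replicate 1 (0.054). In a fit of only the libraries compared, Nppb (0.14) and Xirp2 (0.055) did not pass. Myom2, Pdlim5, Tmod1 and Tnnc1 each lost the call without at least 1 of AMP replicates 1 and 2 and ENPP1+ATP replicates 1, 2 and 3 (adjusted p up to 0.21). The 4 genes without a call were Myh6 (0.03, -0.12 to 0.18), Nebl (0.03, -0.07 to 0.14), Tnni3 (0.09, -0.03 to 0.20) and Des (0.06, -0.02 to 0.13). With library totals in place of TMM factors 33.1% in place of 60.2% of all called genes were higher with AMP, and of the 32 genes 24 were higher and none lower. Of the other cardiomyocyte markers, 3 of 13 were higher and none lower, and of the fibroblast markers 3 of 9 were higher and none lower. Their part in the difference was not tested.

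**Figure D4:**
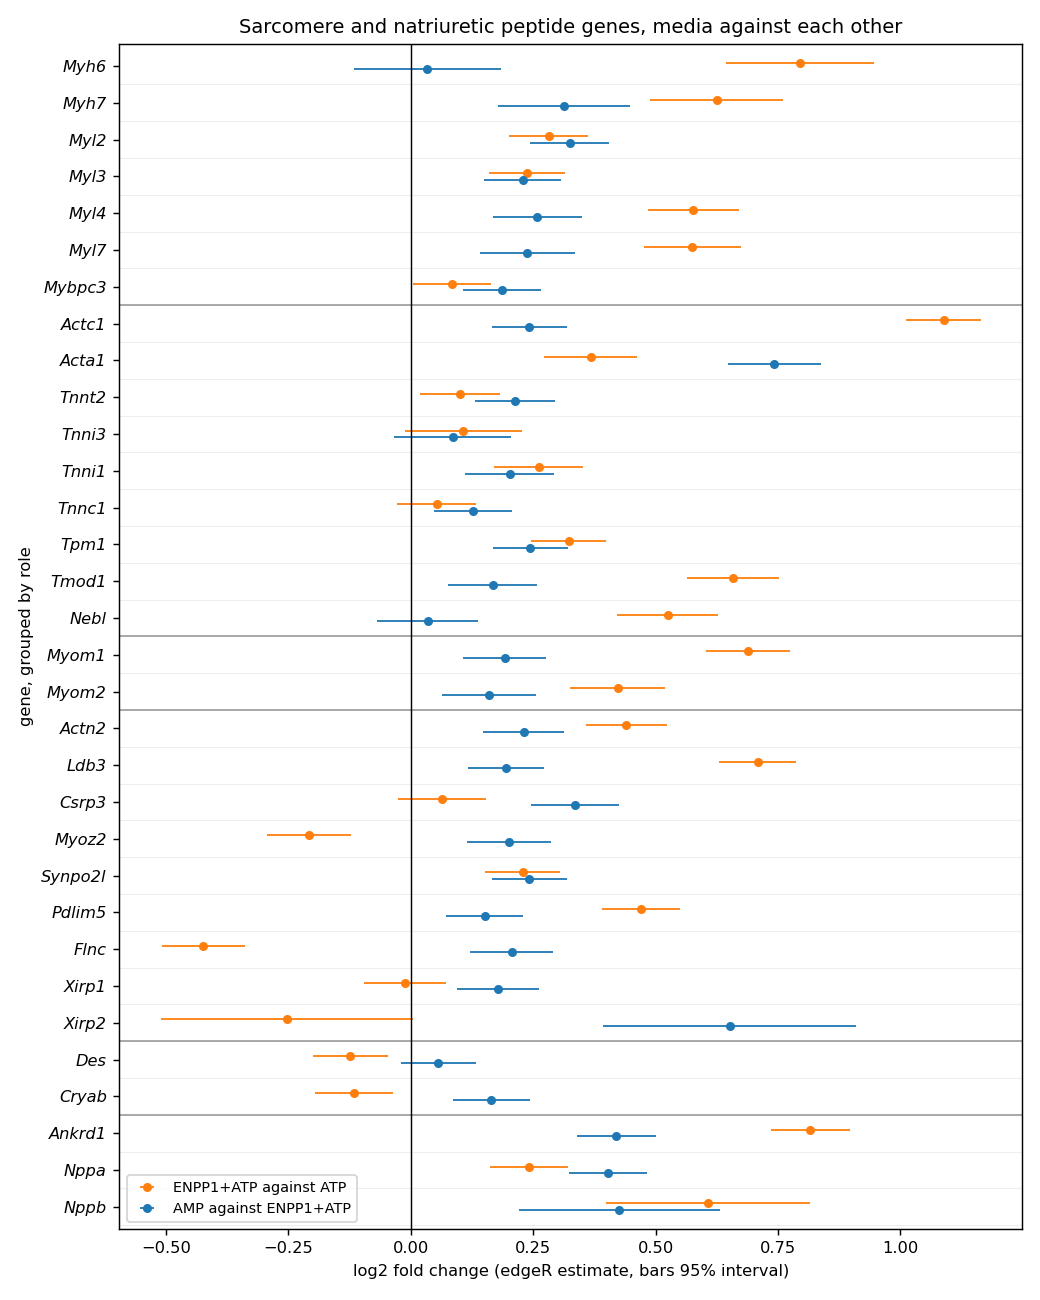
Log2 fold change with 95% interval of each of the 32 genes between ENPP1+ATP and ATP medium and between AMP and ENPP1+ATP medium, from the edgeR fit. Actc1 has the largest difference between ENPP1+ATP and ATP medium at 1.09, Flnc, Xirp2, Myoz2, Des, Cryab and, barely, Xirp1 lie left of 0 there, and the AMP points lie right of 0.

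Ratios of paired genes within a library do not depend on the scaling of that library, and are given here as a description. The ratio of Myh6 to Myh7 CPM was 0.119 ± 0.0079 (mean ± SD, n = 3) in vehicle and 0.118 ± 0.0022 in ENPP1 medium, and 0.239 ± 0.0082 in ATP, 0.268 ± 0.0054 in ENPP1+ATP and 0.221 ± 0.010 in AMP medium. The last 3 media had no library under 0.210 and the first 2 none over 0.128. The calls for the 2 genes differed by medium, and unlike the ratio they depend on scaling. Myh7 fell without a call for Myh6 in ATP medium, and both were called in ENPP1+ATP medium. In AMP medium Myh6 rose without a call for Myh7, whose log2 difference of -0.10 passed under 2 other settings. Tnni3 to Tnni1 was 0.956 ± 0.051 in vehicle, 0.924 ± 0.068 in ENPP1, 1.52 ± 0.035 in ATP, 1.37 ± 0.053 in ENPP1+ATP and 1.26 ± 0.0053 in AMP medium. Myl3 to Myl4 was 3.71 ± 0.28, 3.61 ± 0.18, 6.43 ± 0.28, 5.08 ± 0.27 and 4.96 ± 0.13 in the same order of media. Each of these 3 ratios was higher in every nucleotide library than in any vehicle or ENPP1 library.

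Myl2 to Myl7 was 10.1 ± 0.92 in vehicle, 9.61 ± 0.34 in ENPP1, 10.7 ± 0.22 in ATP, 8.78 ± 0.60 in ENPP1+ATP and 9.29 ± 0.24 in AMP medium, and every range overlapped that of vehicle. Acta1 to Actc1 was 0.102 ± 0.0061, 0.104 ± 0.0027, 0.262 ± 0.012, 0.159 ± 0.013 and 0.225 ± 0.011 in the same order, again with every library of the 3 nucleotide media above every vehicle and ENPP1 library, and was highest in ATP medium, where Actc1 fell, and in AMP medium, where Acta1 rose. The actin ratio was thus further toward the fetal form, and the heavy chain and troponin I ratios further toward the adult forms. Nppa to Nppb was 4.67 ± 0.15, 4.89 ± 0.37, 5.76 ± 0.32, 4.49 ± 0.43 and 4.41 ± 0.34.

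**Figure D5:**
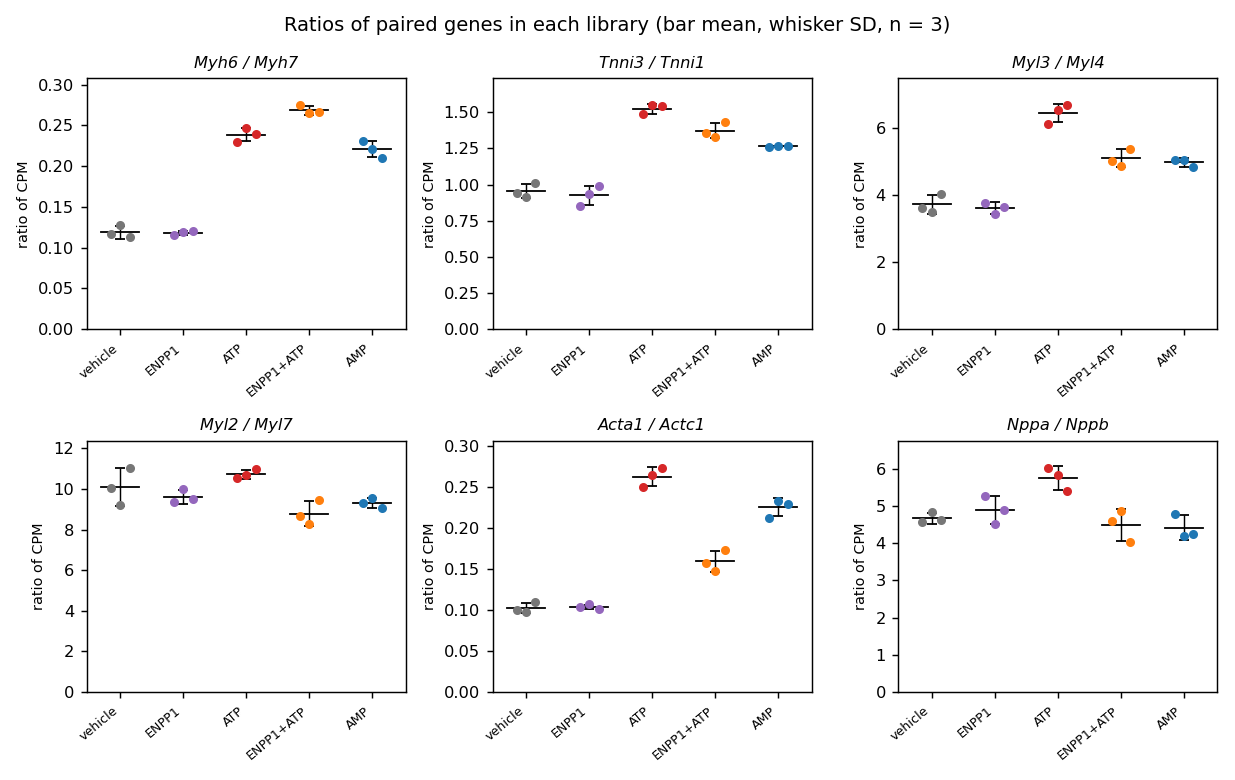
Ratio of CPM within each library for 6 gene pairs by conditioned medium; points are libraries, the bar is the mean and the whisker the SD (n = 3), and each axis starts at 0. Myh6 to Myh7, Tnni3 to Tnni1, Myl3 to Myl4 and Acta1 to Actc1 are higher in the 3 nucleotide media than in vehicle, while Myl2 to Myl7 is not.

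Other sarcomere genes moved in both directions. Of 34 tested, 14 rose and 9 fell with ENPP1+ATP (41.2% and 26.5%, beside 28.6% and 27.4% of all genes), and 14 rose and 8 fell with AMP (41.2% and 23.5%, beside 29.2% and 28.0%). With ATP 13 rose and 15 fell (38.2% and 44.1%, beside 30.2% and 29.7%). The medians were 0.12, 0.09 and -0.02. The largest changes were rises of genes with low levels. Tnnt1, the slow skeletal troponin T, went from 0.924 ± 0.173 CPM (mean ± SD, n = 3) in vehicle to 3.82 ± 0.230 with ENPP1+ATP (2.04 ± 0.28, adjusted p = 3.0e-08). Myom3, another myomesin, went from 5.26 ± 0.826 to 17.3 ± 2.58 with ENPP1+ATP and 15.9 ± 1.63 with AMP (1.71 ± 0.14 and 1.59 ± 0.14, adjusted p = 3.2e-14 and 3.5e-13). Myh8, the perinatal myosin heavy chain, was under 1 CPM in vehicle and at 2.87 ± 0.0822 CPM with AMP and 2.59 ± 0.607 with ATP. Ankrd23, a relative of Ankrd1, was at 0.522 ± 0.0362 CPM in vehicle and 1.95 ± 0.269 with ATP (1.89 ± 0.36, adjusted p = 2.1e-05).

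Of 17 genes for sarcomere chaperones and turnover, 10 rose and 2 fell with ENPP1+ATP (58.8% and 11.8%, beside 28.6% and 27.4% of all genes) and 11 rose and 1 fell with AMP (64.7% and 5.88%, beside 29.2% and 28.0%). With ATP the count was nearly even, 7 and 6 (41.2% and 35.3%, beside 30.2% and 29.7%). Trim63, the ubiquitin ligase MuRF1 that targets myosin and troponin, went from 125 ± 5.38 CPM in vehicle to 203 ± 4.15 with ENPP1+ATP and 215 ± 14.9 with AMP (0.70 ± 0.046 and 0.78 ± 0.046, adjusted p = 2.7e-17 and 6.1e-19). Fbxo32, the ligase atrogin-1, rose by 0.64 ± 0.051 with ENPP1+ATP (adjusted p = 2.1e-14). Klhl40, which stabilises thin filament proteins, rose by 1.44 ± 0.082, 0.75 ± 0.086 and 1.63 ± 0.081 with ENPP1+ATP, AMP and ATP. Hspb6, a small heat shock protein, rose by 0.54 with AMP and 0.87 with ATP, and Smyd2, a lysine methyltransferase, fell with a log2 fold change of -0.72 with ATP.

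In the natriuretic peptide pathway beyond Nppa and Nppb, 8 genes were tested, of which 2 rose and 3 fell with ENPP1+ATP, 3 and 3 with AMP, and 3 and 4 with ATP. Among all genes 28.6% rose and 27.4% fell with ENPP1+ATP, 29.2% and 28.0% with AMP, and 30.2% and 29.7% with ATP. Npr3, the clearance receptor, went from 39.4 ± 2.68 CPM in vehicle to 7.08 ± 0.458 with ATP, 16.5 ± 1.27 with ENPP1+ATP and 14.5 ± 0.441 with AMP (-2.47 ± 0.092, -1.26 ± 0.082 and -1.44 ± 0.084, adjusted p at most 3.2e-17). Npr1, the signalling receptor for Nppa and Nppb products, fell with log2 fold changes of -0.74 ± 0.13 with ENPP1+ATP and -0.59 ± 0.12 with ATP. Mme, the peptidase neprilysin, fell with log2 fold changes of -1.41 ± 0.19 with ENPP1+ATP and -0.86 ± 0.18 with AMP. Nppc, the C-type peptide, was at 0.232 ± 0.170 CPM in vehicle and rose to 1.55 ± 0.543 with ATP and 1.68 ± 0.0588 with AMP, levels at which few reads decide the fold change. Npr1, Npr3 and Mme are also expressed by non-myocytes, whose markers moved with these media, and the part of those cells in the changes was not tested.

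Among 25 transcription regulators of cardiac growth, 15 fell and 3 rose with ATP (60% and 12%, beside 29.7% and 30.2% of all genes). With ENPP1+ATP 7 fell and 6 rose (28% and 24%, near the 27.4% and 28.6% of all genes), and with AMP 7 fell and 5 rose (28% and 20%, beside 28.0% and 29.2%). Between ENPP1+ATP and ATP medium 16 were higher and 2 lower, beside 14.1% and 13.5% of all genes. Tbx20 and Tbx5, T-box factors of the myocardium, fell with log2 fold changes of -0.85 ± 0.051 and -0.75 ± 0.099 with ATP (adjusted p = 1.5e-18 and 2.4e-07), as did Hopx, with -0.97 ± 0.12 (adjusted p = 1.7e-09). Egr1, an immediate early factor, went from 106 ± 10.0 CPM in vehicle to 54.8 ± 3.17 with ENPP1+ATP and 51.8 ± 8.90 with AMP (-0.95 ± 0.11 and -1.04 ± 0.11). Tead4 and Hopx fell with log2 fold changes of -0.53 and -0.46 with ENPP1+ATP, and Hdac4 and Nfatc1 with -0.69 and -0.68 with AMP. Fibroblast markers moved as well, with median log2 fold changes of -1.32, -1.51 and -1.11 with ATP, ENPP1+ATP and AMP. The part of non-myocytes in the changes of these regulators was not tested. In ENPP1 medium none of the genes of these 4 lists passed in edgeR.

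The immortalized mouse cardiac fibroblasts (CFs) of the same series give the level of the genes in a cell type that has no sarcomeres. The 20 CF libraries came from cells given the 5 conditioned media for 24 or 48 hours. All 35 genes were in the CF table, where they took 0.0954% to 0.154% of counts. The share was 0.125% to 0.154% in the ENPP1+ATP and AMP libraries and 0.0954% to 0.103% in the other media. Over all CF libraries, 30 of the 35 genes had a median under 10 CPM. Nppa had a median of 0.687 CPM and Nppb of 0.0729 CPM there. The exceptions, each with a median of at least 50 CPM, were Tpm1 at 286 CPM, Ankrd1 at 258, Flnc at 197, Pdlim5 at 159 and Cryab at 102. For those 5 genes the part of the NRVM level that came from fibroblasts in the cultures was not tested. The 2 tables come from different species and were scaled apart, so no test was made between them.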

How the data were processed

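RNA from NRVMs was sequenced after 24 hours in conditioned medium, 3 libraries for each of 5 media. The authors deposited 1 table of raw read counts per gene for the myocytes and 1 for the CFs. The processing notes in the labels list STAR 2.5.3a, Cell Ranger, mm10 and rn6 without saying which was used for which table, and the counting program is not given in the sources used here. The single-cell files of the series were not used.

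Counts were fitted in R 4.3.3 with edgeR 4.0.16 (filterByExpr, TMM factors, robust quasi-likelihood fit, 1 mean per medium over all 15 libraries). Calls are at a Benjamini-Hochberg adjusted p under 0.05 over the 13461 genes that passed the filter. The biological coefficient of variation was 0.050. Replicates differed by more than counting noise, so no library was counted as a duplicate. Errors beside log2 fold changes are SE and intervals are 95%.

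The members and gene lists were chosen with earlier results of these data known. Every member is accounted for. Values in every library are given for Nppa, Nppb, the isoform pairs and up to 5 members with the largest rise and 5 with the largest fall in each medium, and from each other list up to 3 called genes with the largest change are named per comparison. Correlations of the deviations of same-numbered libraries ran from -0.14 to 0.076, so the replicate numbers did not pair the libraries. Alternatives were other scalings, no filter on low counts, DESeq2 1.42.0, a replicate block, a fit of only the libraries compared, leaving out each library, and a test against a 1.2-fold change that was chosen after seeing the data. The edgeR fit was tested on simulated data.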

Additional observations from a re-analysis of the deposited data

How the results depend on the processing

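Each of the 8 comparisons was recomputed under 23 other settings, and no log2 fold change of the 32 genes that was called changed sign. Without 1 library, the number of the 32 genes called ran from 28 to 29 for ENPP1+ATP against vehicle (29 with all libraries), 21 to 23 for AMP against vehicle (23), 26 to 29 for ATP against vehicle (27), 0 to 0 for ENPP1 against vehicle (0), 23 to 27 for ENPP1+ATP against ATP (25), 29 to 30 for ENPP1+ATP against ENPP1 (29), 23 to 28 for AMP against ENPP1+ATP (28) and 22 to 24 for the joint medium beyond the sum (23). Over all genes, calls ran from 6892 to 7636, 7078 to 7741, 7452 to 8191 and 0 to 2 for the comparisons with vehicle. For the rest they ran from 3000 to 3859, 6901 to 7708, 941 to 1351 and 1602 to 2131, in the order above. Under the other planned settings, the 3 scalings included, the counts of the 32 genes stayed within 28 to 29, 23 to 24, 28 to 30, 0 to 0, 25 to 27, 29 to 30, 24 to 28 and 22 to 24. With a replicate block they were 29, 24, 30, 0, 26, 29, 28 and 23, and the numbers did not pair the libraries. Calls over all genes under the other planned settings, the block included, were 7085 to 7703, 7297 to 7725, 7614 to 8334 and 0 to 14 against vehicle. For the rest they were 3313 to 4055, 7099 to 7742, 1151 to 1536 and 1703 to 2114. Of 256 pairs of gene and comparison, 14 lost and 15 gained a call in at least 1 of these settings. Tmod1 and Xirp1 lost their calls for ENPP1+ATP against vehicle with library totals in place of TMM factors (adjusted p = 0.093 and 0.15), as did Xirp1 for ATP against vehicle (0.91), while Myl3 gained one for ENPP1+ATP (0.030) and Acta1 one for ATP (0.036). Xirp1 also lost both calls without vehicle replicate 3 (0.083 with ENPP1+ATP and 0.12 with ATP) and that for ATP without ATP replicate 3 (0.0501).

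The test against a 1.2-fold change, chosen after seeing the data, called 18 of the 32 genes for ENPP1+ATP against vehicle, 10 for AMP against vehicle, 22 for ATP against vehicle, 15 for ENPP1+ATP against ATP, 19 for ENPP1+ATP against ENPP1, 3 for AMP against ENPP1+ATP and 12 beyond the sum. Over all genes it called 3871, 4036, 4514, 842, 3838, 132 and 437, against 7538, 7703, 8067, 3708, 7583, 1300 and 1994 in the test against no change. Many calls of the latter are thus of changes that are not shown to exceed 1.2-fold. For ENPP1 against vehicle, 0 genes were called in the main analysis, 14 with no filter on low counts, 5 in a fit of only the libraries compared and 2 without ENPP1+ATP replicate 2 or 3, none of them among the 32. With 3 libraries per medium and 13481389 counts or more per library, depth did not limit the members, the lowest of which was at 139 CPM in its lowest library, but it limits genes such as Nppc and Myh8 that had a mean under 1 CPM in vehicle.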

Other observations

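Markers of cell division (8 genes, among them Mki67, Top2a and Ccnb1) summed to 456 to 475 CPM in vehicle and 447 to 469 CPM in ENPP1 medium, against 545 to 597 in ATP, 498 to 509.8 in ENPP1+ATP and 632 to 664 in AMP medium. With AMP 5 of the 8 rose and 1 fell against vehicle (edgeR, adjusted p under 0.05), with ATP 4 rose and 1 fell, and with ENPP1+ATP 3 rose and 3 fell. Of all genes 29.2% rose and 28.0% fell with AMP, 30.2% and 29.7% with ATP, and 28.6% and 27.4% with ENPP1+ATP. Which cells of the cultures carried these transcripts was not tested.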
